A study of Homo sapiens with 6 samples.

Results

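Interferon-stimulated genes are the genes that a cell switches on when interferon binds its receptors. The 45 genes described here were taken by name from the 20030 genes of the deposited expression table, and all 45 had a row. The data came from 786-O, an established line of human renal cancer cells of clear cell origin (ccRCC), at passages 16 to 18. Cells were infected with lentivirus and selected with puromycin. The vector group carried a scrambled shRNA and the shYB1 group an shRNA against YB1, the Y-box binding protein encoded by YBX1. Each group had 3 RNA-seq libraries, numbered 1 to 3 in the labels. The text of the series speaks of several independent shRNAs, but the labels give a single shYB1 group, so the hairpin in each shYB1 library is not known. No label says that the libraries of a group came from separate cultures, so the p-values measure only the spread between these libraries, which may be technical. No interferon treatment appears in the labels.

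Type I and type III interferons act through the receptor-bound kinases JAK1 and TYK2, which activate STAT proteins. STAT2 and IRF9 are subunits of the ISGF3 complex, which binds the interferon-stimulated response element (ISRE) in the promoters of its target genes. The products of those genes block virus entry, sense and destroy foreign RNA, or tag proteins with ISG15, and many tumour cell lines keep a low level of them without added interferon. YB1 binds RNA and DNA, including the Y-box, an inverted CCAAT motif.

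Promoters were read from RefSeq (GRCh38.p14), each running from 250 bases before to 50 bases after the annotated start. They were available for 36 of the 45 genes. A core form of the ISRE, written as GAAA, any 2 bases and GAAA again, was searched on both strands and found in 24 of the 36 (66.7%), against 3.57% of all 35116 promoters of the same length. Of the genes with a promoter, the letters were present in 4 of 8 that fell with shYB1, 3 of 4 that rose, 11 of 15 that were tested and not called, and 6 of 9 whose level was too low to test. CCAAT, on either strand, was found in 12 of 36 (33.3%) against 34.6% of all promoters, with 4 of 8 among the genes that fell and 0 of 4 among those that rose. These are matches of letters, not measured binding sites. Forms with a gap other than 2 bases were not counted. GAAACGAAA, for example, stands in the promoters of DDX58 and IFI16, which fell, and of OAS1, which was too low to test. These genes were counted as without the letters. The 5 promoters printed here belong to the gene with the largest fall (IFITM1, chr11:313790-314089, plus strand), its neighbour with the highest level (IFITM3, chr11:320811-321110, minus strand), the most abundant gene that rose (ISG15, chr1:1013247-1013546, plus strand), a gene that fell and carries the ISRE letters repeatedly (IFI6, chr1:27672143-27672442, minus strand), and DTX3L (chr3:122564088-122564387, plus strand), which shares its promoter with PARP9. Each is written 5′ to 3′ on the strand of its gene, and capitals mark this ISRE form, CCAAT or their reverse complements.
IFITM1: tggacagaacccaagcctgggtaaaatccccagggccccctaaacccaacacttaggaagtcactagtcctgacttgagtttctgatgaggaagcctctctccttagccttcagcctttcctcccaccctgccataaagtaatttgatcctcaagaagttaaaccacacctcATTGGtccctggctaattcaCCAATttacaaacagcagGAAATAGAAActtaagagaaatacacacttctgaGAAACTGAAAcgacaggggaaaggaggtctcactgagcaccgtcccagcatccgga
IFITM3: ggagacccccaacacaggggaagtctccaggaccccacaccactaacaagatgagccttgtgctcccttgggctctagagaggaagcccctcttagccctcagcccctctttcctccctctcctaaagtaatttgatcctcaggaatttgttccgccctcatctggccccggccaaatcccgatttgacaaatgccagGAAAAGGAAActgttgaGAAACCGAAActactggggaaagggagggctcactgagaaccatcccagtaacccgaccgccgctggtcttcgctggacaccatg
ISG15: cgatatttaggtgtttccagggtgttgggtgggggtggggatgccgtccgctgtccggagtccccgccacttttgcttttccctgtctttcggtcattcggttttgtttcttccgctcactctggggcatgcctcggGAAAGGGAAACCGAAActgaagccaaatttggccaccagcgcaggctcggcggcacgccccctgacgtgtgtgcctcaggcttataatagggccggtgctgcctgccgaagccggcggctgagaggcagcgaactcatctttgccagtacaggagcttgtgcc
IFI6: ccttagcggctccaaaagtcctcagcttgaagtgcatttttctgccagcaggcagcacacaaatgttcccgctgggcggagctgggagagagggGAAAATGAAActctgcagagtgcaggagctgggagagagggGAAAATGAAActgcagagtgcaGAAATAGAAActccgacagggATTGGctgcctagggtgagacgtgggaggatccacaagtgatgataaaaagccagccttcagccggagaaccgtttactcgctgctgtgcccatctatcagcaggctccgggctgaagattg
DTX3L: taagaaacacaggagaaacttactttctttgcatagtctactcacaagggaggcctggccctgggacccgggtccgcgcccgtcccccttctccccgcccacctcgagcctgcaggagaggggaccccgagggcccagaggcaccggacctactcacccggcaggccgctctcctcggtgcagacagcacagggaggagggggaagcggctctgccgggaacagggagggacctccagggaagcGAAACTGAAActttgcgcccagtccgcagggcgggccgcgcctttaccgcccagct
Counted from 0 at the annotated start, the ISRE letters began at -40 and -6 in IFITM1 and at -52 and -35 in IFITM3, so both genes held 2 matches. CCAAT letters stood at -78 and -58 in IFITM1, and IFITM3 had no match to them. ISG15 held 2 overlapping ISRE matches, at -113 and -107, and no CCAAT. IFI6 held 3, at -156, -115 and -93, followed by CCAAT on the other strand at -72. DTX3L and PARP9 are transcribed away from each other, their promoter windows overlap by 137 bases, and the same 10 bases (chr3:122564332-122564341) gave the match in both.

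Before the comparison, YBX1 itself was examined. It stood at 366.5, 373 and 378 FPKM in vector libraries 1 to 3 and at 167, 166 and 173 FPKM in shYB1 libraries 1 to 3, where FPKM is a fragment count scaled to transcript length and to the size of the library, so that levels of different genes can be compared. It fell by 1.14 on the log2 scale (SE 0.031, limma adjusted p = 1.53e-08), a mean of 372 ± 5.70 FPKM against 169 ± 4.04 FPKM (SD, n = 3). The total over all genes was 282736 to 295887 FPKM per library. FPKM carry no record of sequencing depth, and the step between the lowest values put it roughly at 23300000 to 27600000 fragments per library. The renal markers PAX8 (75.6 to 78.7 FPKM) and PAX2 (16.5 to 19.5 FPKM) were present in every library. Of 7 leukocyte markers only CD68 and NCAM1 averaged 1 FPKM or more, and PTPRC, CD3E and CLEC4C were at 0 or at most 0.0164 FPKM. The sum of the 7 was 30.3 to 31.5 FPKM in vector and 27.9 to 28.3 FPKM in shYB1, mostly CD68, and its part in the results was not tested.

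Most of the interferon-stimulated genes were expressed at a low level in these cells. In vector libraries 7 of the 45 averaged at least 10 FPKM, 24 lay between 1 and 10, and 14 were under 1. IFITM3 was the highest and ISG15, IFI6, IFI16, IRF1, IRF9 and STAT2 were the other six above 10. The 14 low genes, OAS1, OAS2, OASL, MX1, MX2, DDX60, IRF7, ISG20, RSAD2, CMPK2, TRIM22, IFI27, XAF1 and EPSTI1, ranged from 0 to 1.46 FPKM over all libraries, and 4 of them (RSAD2, IRF7, CMPK2 and XAF1) were listed at 0 in at least 1 library. They include genes that are typically among the strongest responders to interferon, such as MX1, RSAD2 and IFI27. Genes were tested where their mean over the 6 libraries was at least 1 FPKM, which left 31 of the 45.

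**Figure D1:**
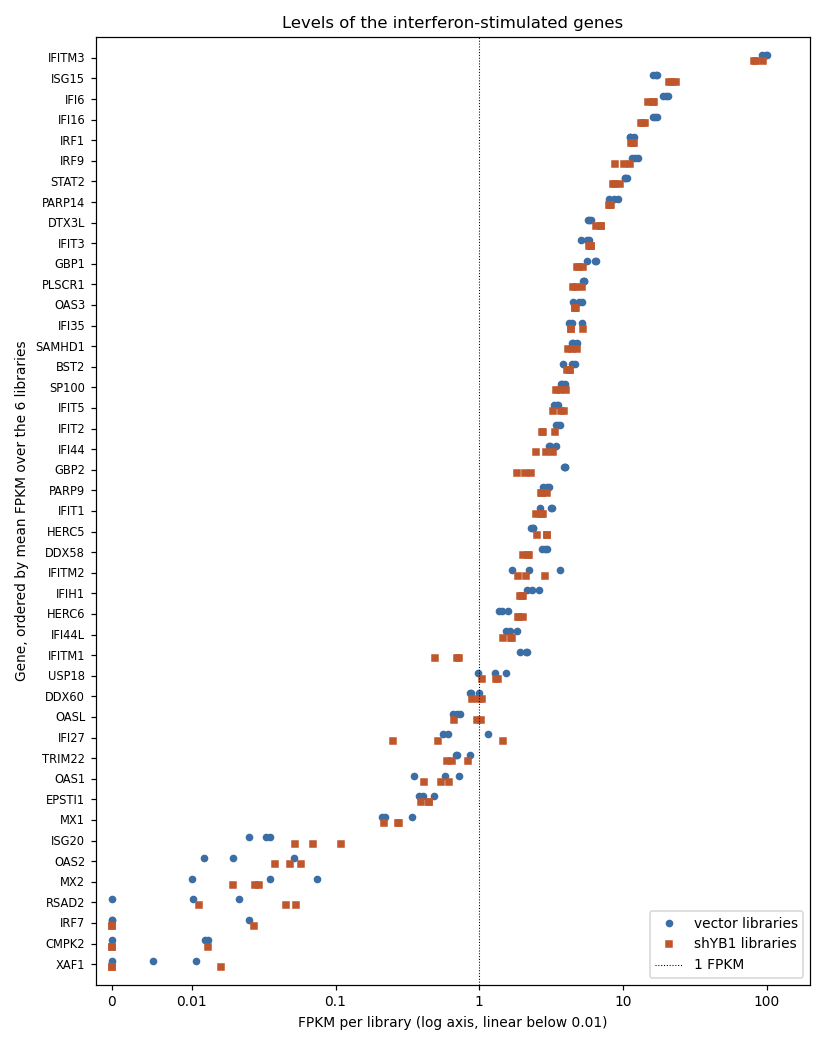
Level of each of the 45 interferon-stimulated genes in each library, in FPKM on a log axis that is linear below 0.01, with genes ordered by their mean. Circles are the 3 vector and squares the 3 shYB1 libraries, and the 14 genes that were not tested sit to the left of the dotted line at 1 FPKM on average.

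With YB1 knockdown the 31 tested genes did not move as a block. The limma test, adjusted by the method of Benjamini and Hochberg over 10439 genes, called 9 of them lower (29%), against 6.93% of all genes tested, and 4 higher (12.9%), against 18.7% of all genes tested. The list was chosen with earlier results of these data known, so these shares describe it and are not a test of it. The genes that fell were IFITM1, IFITM3, GBP1, GBP2, DDX58, IFI16, STAT2, IRF9 and IFI6, and those that rose were ISG15, HERC5, HERC6 and DTX3L. The other 18 had log2 fold changes between -0.25 and 0.11. The median log2 fold change was -0.076 over the 31 genes, 23 negative and 8 positive, and 0.055 over all genes tested. The median over the 31 genes of each library's difference from the vector mean was -0.071, -0.089 and -0.099 in shYB1 libraries 1 to 3. RNA of bulk cells was measured, so fewer expressing cells and less RNA per cell cannot be told apart.

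The split between falls and rises depended on the scaling. Size factors by the median of ratios moved the median of all genes to -0.00057 and that of the 31 genes to -0.13. Then 12 of the 31 were called lower, against 12.2% of all genes tested, and 2 of the 31 higher, against 11.2% of all genes tested. The 2 groups of libraries did not overlap for 11 of the 31 that were lower in shYB1, against 12.5% of all genes tested. The same held for 5 of the 31 that were higher, against 30.1% of all genes tested. Only IFITM1 of the 31 met the selection criteria of the study, a fold change of at least 2 with a p under 0.05. The fold change and unadjusted p used here came from limma on log2(FPKM + 0.1). The study names no test or adjustment for this selection. Of all genes tested, 0.182% met the criteria in the direction of IFITM1 and 0.0383% in the other. After IFITM1 and GBP2, the called gene with the next largest log2 fold change was DDX58, at -0.40.

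**Figure D2:**
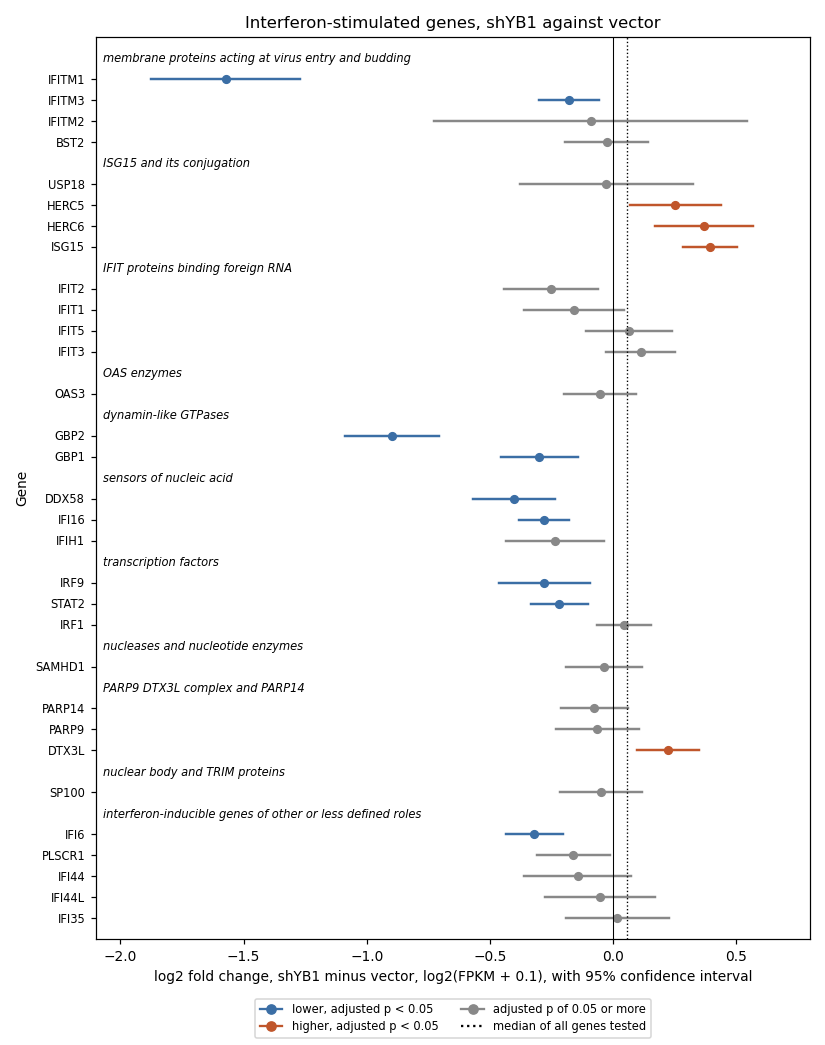
Log2 fold change of the 31 tested genes, shYB1 minus vector on the log2(FPKM + 0.1) scale, with 95% confidence intervals, grouped by role. Blue marks the 9 genes that fell, orange the 4 that rose and grey the 18 that were not called, and the dotted line is the median of all genes tested, 0.055.

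**Figure D3:**
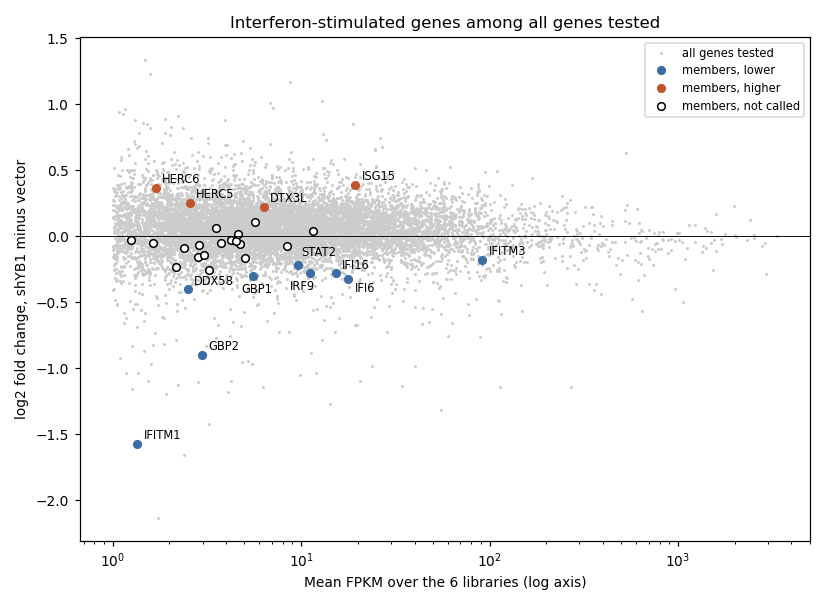
Log2 fold change (shYB1 minus vector) against the mean level in FPKM (log axis) for all 10439 genes tested, with the 31 interferon-stimulated genes marked. IFITM1 at -1.57 and GBP2 at -0.90 lie at the lower edge of the cloud, and the other called genes lie within it.

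The membrane proteins that act where viruses enter or leave the cell held the largest change. IFITM1 belongs to the interferon-induced transmembrane proteins, which restrict the fusion of virus and cell membranes, and acts mainly at the cell surface. It stood at 2.11, 1.93 and 2.16 FPKM in vector libraries and at 0.722, 0.697 and 0.489 FPKM in shYB1 libraries. Every shYB1 library was below every vector library, and the mean fell by 69.3%, from 2.07 ± 0.125 to 0.636 ± 0.128 FPKM (SD, n = 3). On the log2 scale it fell by 1.57 (SE 0.14, limma adjusted p = 4.30e-05), with a range of -1.87 to -0.91 over the alternatives, the smallest with a pseudocount of 1. It passed the filter through its vector level, its shYB1 mean being under 1 FPKM. The values rest on roughly 43.3 to 46.8 fragments in vector and 9.73 to 14.6 in shYB1, as estimated from the step between low values. This estimate can be well off. For CMPK2 it gave 0.37 to 0.441, less than a whole fragment, in libraries where that gene was above 0. Of the 50-base words in the transcripts of IFITM1, 32.0% also occur in other genes, mostly IFITM2. The annotated span of IFITM2 (chr11:307631-315272, GENCODE release 29) contains that of IFITM1 (chr11:313506-315272), so the level of IFITM1 is uncertain to that extent.

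IFITM3, which acts in endosomes, was the most abundant of the 45 genes. It had 100.2, 98.8 and 92.5 FPKM in vector and 83.5, 81.0 and 93.5 FPKM in shYB1. The groups overlapped, because shYB1 library 3 lay above vector library 3. Its fall of 0.18 on the log2 scale (SE 0.054, limma adjusted p = 0.0380) did not pass the test when vector library 1 (adjusted p = 0.120), vector library 2 (0.0996), shYB1 library 1 (0.114) or shYB1 library 2 (0.124) was left out, with adjusted p between 0.00617 and 0.124 over all alternatives. Of their 50-base words, 17.4% in IFITM3 and 34.1% in IFITM2 are shared with other genes. IFITM2 spread from 1.70 to 3.63 FPKM in vector alone and could not be separated (log2 fold change -0.09, 95% interval -0.73 to 0.55). BST2, or tetherin, which holds budding virus at the cell surface, had 4.62, 3.85 and 4.44 FPKM in vector and 4.25, 4.10 and 4.29 FPKM in shYB1, and its log2 fold change was -0.025 (limma adjusted p = 0.839). The log2 ratio of IFITM1 to IFITM3 within a library, a comparison chosen after the values were seen, was -5.68 to -5.42 in vector and -7.58 to -6.85 in shYB1.

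Of the 4 listed genes grouped here with ISG15, 3 rose, against 18.7% of all genes tested, and 2 of these 3 calls were lost when single libraries were left out. The ISG15 enzymes UBA7 and UBE2L6, outside the list, were not called. ISG15 is a ubiquitin-like protein that is attached to other proteins and is also secreted. Its level was 17.0, 16.1 and 17.2 FPKM in vector and 21.0, 21.7 and 23.3 FPKM in shYB1. Every shYB1 library exceeded every vector library, the mean was 31.5% higher, and the log2 fold change was 0.39 (SE 0.049, limma adjusted p = 0.000406), past the threshold in all 15 alternatives. HERC5 is the main ligase that attaches ISG15 to newly made proteins. It had 2.29, 2.38 and 2.35 FPKM in vector and 2.98, 2.53 and 2.93 FPKM in shYB1, a log2 fold change of 0.25 (SE 0.083, limma adjusted p = 0.0478). The groups did not overlap, but the call held in only 4 of 14 alternatives: it was lost after median-of-ratios scaling (adjusted p = 0.113) and without vector library 1 (0.120), 2 (0.0815) or 3 (0.0860) or shYB1 library 1 (0.147) or 3 (0.133).

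HERC6, the neighbour of HERC5 on chromosome 4, is a related ligase. It had 1.38, 1.59 and 1.44 FPKM in vector and 2.01, 1.86 and 1.90 FPKM in shYB1. The groups did not overlap and the log2 fold change was 0.37 (SE 0.090, limma adjusted p = 0.0137), which became an adjusted p of 0.0503 without vector library 1 and 0.0511 without shYB1 library 1, the range over the alternatives being 0.00908 to 0.0511. The log2 ratio of HERC6 to HERC5 within a library overlapped between the groups, at -0.73 to -0.59 in vector and -0.62 to -0.44 in shYB1 (exact permutation p = 0.2). USP18, the protease that removes ISG15 and restrains signalling from the interferon receptor, was the exception. It had 0.980, 1.54 and 1.29 FPKM in vector and 1.04, 1.30 and 1.35 FPKM in shYB1, with overlapping groups and a log2 fold change of -0.027 (95% interval -0.38 to 0.32). Of its 50-base words 23.4% are shared, nearly all with USP41.

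The IFIT family includes proteins that bind foreign RNA, and none of the 4 genes passed the limma test, with 1 (IFIT2) at an unadjusted p under 0.05. IFIT3, the highest, had 5.58, 5.82 and 5.07 FPKM in vector and 5.98, 5.82 and 5.99 FPKM in shYB1. The groups were just apart, between vector library 2 and shYB1 library 2, with a log2 fold change of 0.11 (limma adjusted p = 0.217). IFIT2 lay on the other side, between 3.42 and 3.62 FPKM in vector and between 2.73 and 3.36 FPKM in shYB1 (log2 fold change -0.25, limma adjusted p = 0.0558, which became 0.0148 without shYB1 library 3, 0.0313 with median-of-ratios scaling and 0.0299 with quantile normalization, and was at most 0.167 over the alternatives). IFIT1 and IFIT5 had log2 fold changes of -0.16 and 0.066. Of the OAS enzymes, which make oligoadenylates on double-stranded RNA, only OAS3 could be tested. It had 5.15, 4.94 and 4.48 FPKM in vector and 4.70, 4.63 and 4.66 FPKM in shYB1, so the shYB1 values lay inside the vector range, and the log2 fold change was -0.055 (95% interval -0.20 to 0.091).

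Both dynamin-like GTPases that could be tested fell, against 6.93% of all genes tested. GBP2, a guanylate-binding protein that coats intracellular pathogens, had 3.92, 3.96 and 3.88 FPKM in vector and 1.83, 2.29 and 2.08 FPKM in shYB1. The groups were far apart and the mean fell by 47.3%, on the log2 scale by 0.90 (SE 0.086, limma adjusted p = 8.57e-05). GBP1, its neighbour on chromosome 1, had 5.62, 6.41 and 6.46 FPKM in vector and 5.26, 4.94 and 4.75 FPKM in shYB1. It fell by 0.30 (SE 0.070, limma adjusted p = 0.0118), with no overlap. The log2 ratio of GBP2 to GBP1 within a library, also chosen after the values were seen, was -0.74 to -0.52 in vector and -1.52 to -1.11 in shYB1. Of their 50-base words, 10.2% in GBP2, mostly with GBP7, and 9.62% in GBP1, mostly with GBP1P1, are shared with other genes. MX1, at 0.210 to 0.342 FPKM, and MX2, at 0.00998 to 0.0741 FPKM, were too low to test.

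Among the sensors of nucleic acid 2 of the 3 tested fell, against 6.93% of all genes tested. DDX58 encodes RIG-I, which detects viral RNA with a triphosphate end. It had 2.75, 2.86 and 2.95 FPKM in vector and 2.03, 2.21 and 2.17 FPKM in shYB1, and fell by 0.40 on the log2 scale (SE 0.075, limma adjusted p = 0.00393). IFI16, a nuclear sensor of DNA, had 16.3, 17.3 and 16.7 FPKM in vector and 14.3, 13.7 and 13.4 FPKM in shYB1, and fell by 0.28 (SE 0.046, limma adjusted p = 0.00186). In both genes the groups did not overlap, and both passed the test in every alternative that included them. IFIH1, or MDA5, the sensor of long double-stranded RNA, had 2.32, 2.13 and 2.60 FPKM in vector and 1.98, 2.03 and 1.92 FPKM in shYB1. Its log2 fold change of -0.24 was of similar size and its groups did not overlap, but the limma adjusted p was 0.0775, and it passed only with median-of-ratios scaling (0.0392), with quantile normalization (0.0327) or without vector library 2 (0.0491), within a range of 0.0327 to 0.234.

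Of the 3 transcription factors tested, the ISGF3 subunits STAT2 and IRF9 fell, against 6.93% of all genes tested. STAT2 had 10.4, 10.3 and 10.6 FPKM in vector and 8.53, 8.80 and 9.45 FPKM in shYB1, a fall of 0.22 on the log2 scale (SE 0.052, limma adjusted p = 0.0124). IRF9, the DNA-binding subunit, had 12.2, 11.6 and 12.7 FPKM in vector and 8.76, 10.1 and 11.3 FPKM in shYB1. The groups overlapped in neither gene, although for IRF9 shYB1 library 3 came close to the lowest vector library. IRF9 fell by 0.28 (SE 0.083, limma adjusted p = 0.0337), and the call was lost without vector library 1 (adjusted p = 0.0906) or 3 (0.0914) or shYB1 library 1 (0.0791) or 2 (0.0797), the range over all alternatives being 0.00794 to 0.0914. Of its 50-base words 43.6% are shared, nearly all with the overlapping annotation AL136295.5. IRF1, an activator that also responds to interferon gamma, had 11.1, 12.0 and 11.1 FPKM in vector and 12.0, 11.8 and 11.4 FPKM in shYB1 (log2 fold change 0.043, limma adjusted p = 0.554), and its sign turned to -0.013 with median-of-ratios scaling. IRF7, the amplifier of interferon production, was at 0 to 0.0269 FPKM.

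**Figure D4:**
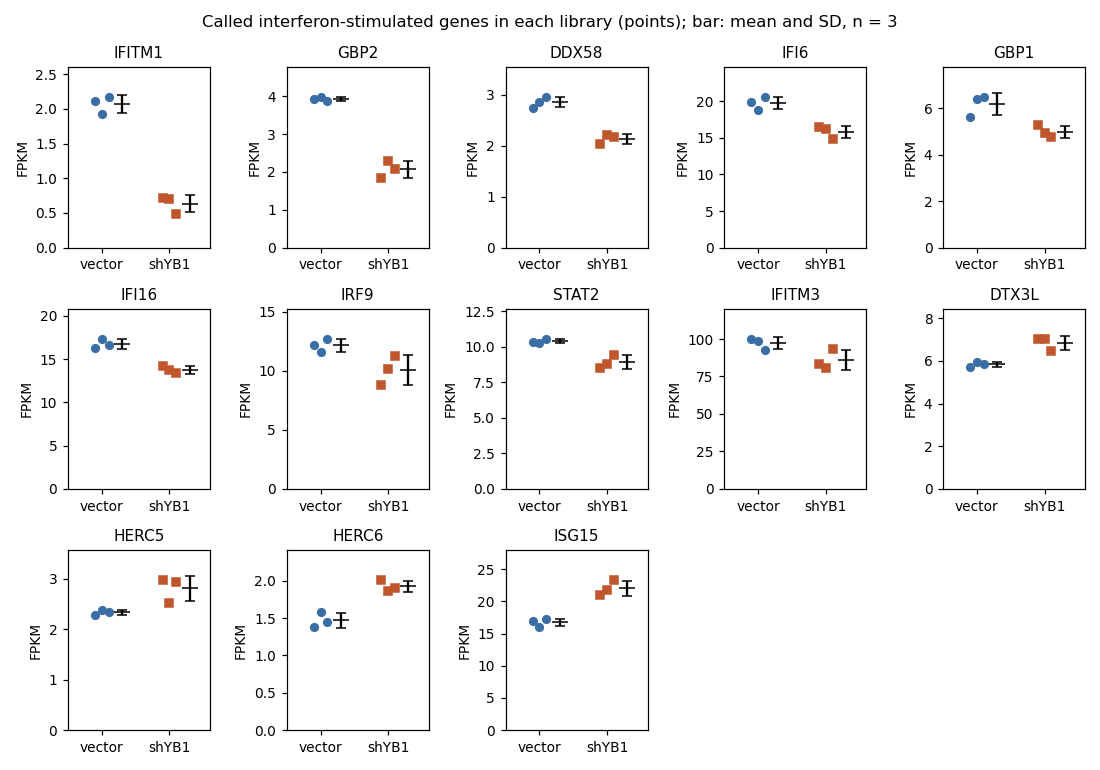
Level in FPKM of the 13 called genes in each vector (circles) and shYB1 (squares) library, with the mean and SD of 3 libraries beside the points and each axis starting at 0. The groups are apart in every panel except IFITM3, and the gap is widest relative to the level in IFITM1 and GBP2.

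In the PARP9, DTX3L and PARP14 group 1 of 3 genes, DTX3L, was called higher, against 18.7% of all genes tested. DTX3L is a ubiquitin ligase that works as a heterodimer with PARP9. It had 5.73, 5.95 and 5.84 FPKM in vector and 7.04, 7.01 and 6.46 FPKM in shYB1, with no overlap, and rose by 0.22 on the log2 scale (SE 0.056, limma adjusted p = 0.0164). The call was lost with median-of-ratios scaling (adjusted p = 0.0523), with quantile normalization (0.0598), and without vector library 1 (0.0540), shYB1 library 1 (0.0605) or shYB1 library 2 (0.0636), the range being 0.0116 to 0.0636. PARP9, on the other side of the shared promoter, stood at 2.78 to 3.07 FPKM in vector and 2.70 to 2.98 FPKM in shYB1 (log2 fold change -0.065, 95% interval -0.23 to 0.10). The log2 ratio of DTX3L to PARP9 within a library, chosen after the values were seen, was 0.90 to 1.10 in vector and 1.24 to 1.36 in shYB1. The exact permutation test, two-sided, was run on the 4 such ratios computed. It gave 0.1 for DTX3L to PARP9, GBP2 to GBP1 and IFITM1 to IFITM3 (adjusted p = 0.133), and in each of these ratios the groups did not overlap. That is the smallest p the test allows, so it could not show a difference between the partners whatever the values. PARP14, a mono-ADP-ribosyltransferase, had 8.60, 9.28 and 7.94 FPKM in vector and 8.26, 8.17 and 8.01 FPKM in shYB1, with overlapping groups.

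Of the 5 tested genes with other or less defined roles, 1 fell, IFI6, against 6.93% of all genes tested. SAMHD1 and SP100, described below, were not counted among the 5. IFI6 is a small membrane protein with antiviral and anti-apoptotic activity. It had 19.9, 18.9 and 20.5 FPKM in vector and 16.4, 16.2 and 14.8 FPKM in shYB1, without overlap, and fell by 0.32 on the log2 scale (SE 0.052, limma adjusted p = 0.00181). PLSCR1, a phospholipid scramblase, had 5.38, 5.25 and 5.39 FPKM in vector and 4.70, 4.45 and 5.17 FPKM in shYB1. Its groups did not overlap, but its log2 fold change of -0.16 had a limma adjusted p of 0.0990, which passed the threshold with median-of-ratios scaling (0.0407), with quantile normalization (0.0378) and without shYB1 library 3 (0.0437), within a range of 0.0378 to 0.30. SAMHD1, which degrades deoxynucleotides, had 4.42, 4.51 and 4.79 FPKM in vector and 4.43, 4.78 and 4.17 FPKM in shYB1. SP100, a component of nuclear bodies, had 3.97, 3.75 and 3.71 FPKM in vector and 3.41, 4.004 and 3.65 FPKM in shYB1. The groups of both overlapped, with log2 fold changes of -0.036 and -0.048. IFI35, IFI44 and IFI44L had log2 fold changes of 0.017, -0.14 and -0.052 and did not pass the test.

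Among the 14 genes that were too low to test, the groups did not overlap only for ISG20, an exonuclease, at 0.0249 to 0.0352 FPKM in vector and 0.0522 to 0.109 FPKM in shYB1. ISG20 and IFI27 were named after their values were seen. With no filter on low values, limma called none of the 14, and 1 had an unadjusted p under 0.05, ISG20 with the lowest adjusted p of 0.0953. IFI27, which varied most among them in FPKM, spread from 0.563 to 1.15 FPKM in vector and from 0.250 to 1.46 FPKM in shYB1.

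The rest of the interferon pathway was followed in a further 40 genes. They were chosen with earlier results of these data known, so the shares describe the list and are not a test of it. Of the 40 genes 31 could be tested. Of these 7 fell (22.6% of those tested, against 6.93% of all genes tested) and 1 rose, against 18.7% of all genes tested. With median-of-ratios scaling 11 of the 31 fell, against 12.2% of all genes tested. Of 9 interferon ligand genes 8 were listed at 0 in all 6 libraries, and IFNE, the other, was at 0.114 to 0.486 FPKM with overlapping groups. All 6 receptor subunits were expressed, and 1 of the 6 fell, against 6.93% of all genes tested. That gene was IL10RB, the shared chain of the interferon lambda and interleukin 10 receptors. It had 14.0, 15.2 and 15.2 FPKM in vector and 11.6, 12.7 and 11.4 FPKM in shYB1, a fall of 0.31 on the log2 scale (SE 0.055, limma adjusted p = 0.00287). The kinases JAK1, JAK2 and TYK2 were not called.

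Of the 5 genes listed as brakes on receptor signalling 4 fell, against 6.93% of all genes tested, PIAS1 being the exception. USP18, which also restrains the receptor, was counted with ISG15 and was not called. SOCS3, which inhibits JAK kinases, had 65.9, 66.7 and 67.0 FPKM in vector and 42.9, 43.6 and 46.1 FPKM in shYB1, and fell by 0.59 on the log2 scale (SE 0.036, limma adjusted p = 4.36e-06). SOCS1, the related inhibitor that acts most strongly on interferon signalling, had 4.91, 4.85 and 6.09 FPKM in vector and 3.13, 2.77 and 4.21 FPKM in shYB1. It fell by 0.65 (SE 0.15, limma adjusted p = 0.0131), with an adjusted p of 0.0539 without shYB1 library 1 and between 0.000416 and 0.0539 over the alternatives. The tyrosine phosphatase PTPN6 had 2.26, 2.38 and 2.51 FPKM in vector and 1.70, 1.97 and 1.78 FPKM in shYB1, a fall of 0.37 (SE 0.087, limma adjusted p = 0.0109), and PTPN11 was also called lower, in 8 of 15 alternatives, its call being lost without vector library 1, 2 or 3 or shYB1 library 2 or 3 (adjusted p up to 0.114). In none of SOCS3, SOCS1 and PTPN6 did the groups overlap.

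On the side of sensing, 2 of 10 genes fell, against 6.93% of all genes tested. TMEM173 encodes STING, the adaptor of DNA sensing. It had 6.41, 6.97 and 6.76 FPKM in vector and 5.48, 4.69 and 4.85 FPKM in shYB1, and fell by 0.42 on the log2 scale (SE 0.069, limma adjusted p = 0.00204). IKBKE, a kinase of interferon induction, was the other and was called lower in 11 of 14 alternatives, the exceptions being those without vector library 3 (adjusted p = 0.0623), shYB1 library 1 (0.0633) or shYB1 library 3 (0.0519). The single pathway gene that rose was EIF2AK2, the kinase PKR, which shuts down translation on double-stranded RNA. It had 6.13, 6.19 and 6.06 FPKM in vector and 7.73, 7.26 and 7.27 FPKM in shYB1, with no overlap and a log2 fold change of 0.27 (SE 0.052, limma adjusted p = 0.00445). UBA7 and UBE2L6, the activating and conjugating enzymes for ISG15, were not called.

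**Figure D5:**
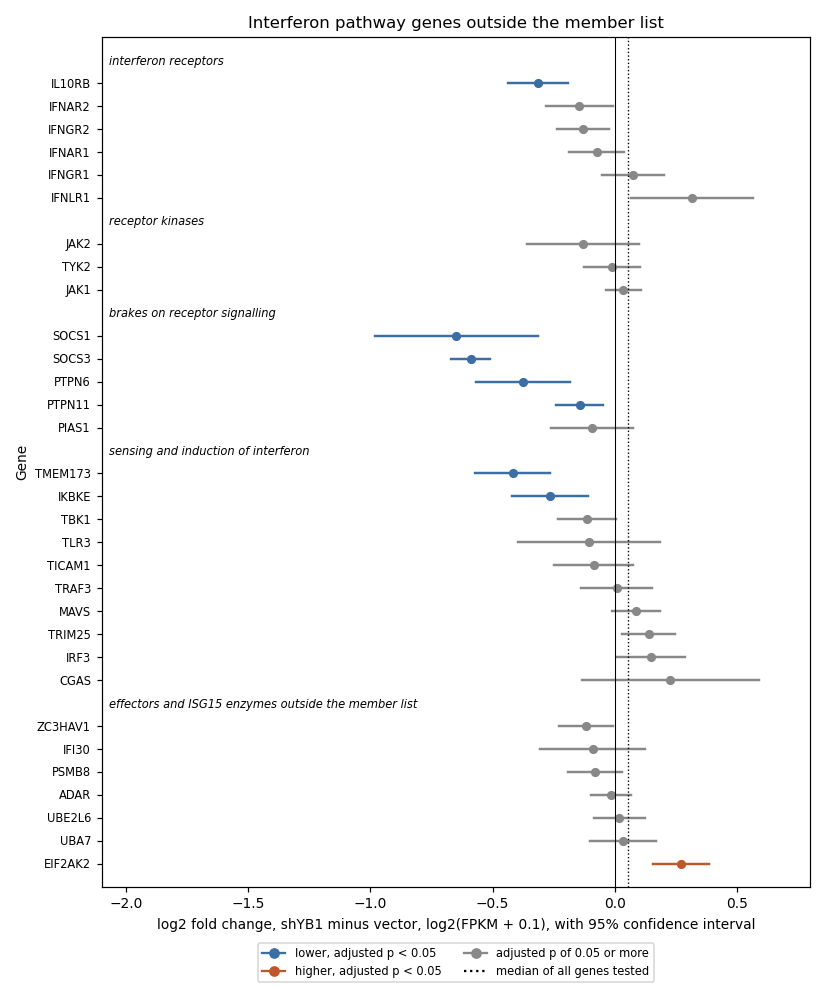
Log2 fold change of the 31 tested pathway genes outside the 45, shYB1 minus vector on the log2(FPKM + 0.1) scale, with 95% confidence intervals and the median of all genes tested as a dotted line. The 7 genes that fell, against 6.93% of all genes tested, include 4 of the 5 genes listed as brakes on receptor signalling. EIF2AK2 is the 1 that rose.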

How the data were processed

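RNA of 3 vector and 3 shYB1 libraries of 786-O cells was sequenced, with groups and numbering as labelled. The authors deposited 1 table of FPKM per gene and library, and 0 columns of values were left out. The submitters' processing notes name Trimmomatic, HISAT2, Cufflinks, HTSeq, DESeq and GRCh38. The role and version of each are not given in the sources used here, nor is the test. FPKM hold no counts, so no count test was run, and the depth given is an estimate from the spacing of low values.

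Values were transformed here to log2(FPKM + 0.1), keeping the 10439 genes that averaged 1 FPKM or more across the 6 libraries. A fold change on this scale understates the change of low genes. The group difference was tested two-sided by limma 3.58.1 under R 4.3.3 (lmFit, then eBayes with trend and robust options). P-values were adjusted by the method of Benjamini and Hochberg across these genes, and an adjusted p under 0.05 was called. This step was checked on simulated data. Ratios of neighbouring or partner genes were compared by exact permutation, which with 3 libraries against 3 cannot give a p under 0.1.

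The 45 genes, their roles and the 40 pathway genes were chosen with earlier results of these data known. Named with values in each library were all called genes of the 45, the highest gene not called in each role, and the 6 called pathway genes with the largest fold change. IFIT2 was added after its values were seen. Results for some genes are not reported here. Gene spans and the 50-base words shared between transcripts came from GENCODE release 29, and promoters from RefSeq, which lacked those of IFITM2, USP18, IFIT2, OAS2, OASL, MX2, GBP2, IRF7 and TRIM22. Both annotations are of GRCh38. The alternatives tried were a pseudocount of 1 or 0.01, a filter at a mean of 5 FPKM or none, median-of-ratios size factors, a common total, quantile normalization, a variance prior without trend, a replicate block, and each library left out in turn. Python 3.11.15, pandas 2.3.3 and matplotlib 3.10.9 were used for the other steps.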

Additional observations from a re-analysis of the deposited data

How the results depend on the processing

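Over the 31 tested genes and the 8 called pathway genes, with up to 15 alternatives each, 496 of 563 values kept their direction and side of the threshold, 42 kept their direction and lost the call, 9 gained one and 16 changed sign. The sign changes were all in genes that were not called. With a library left out, the log2 fold change ran from -0.33 to 0.20 for IFITM2, -0.10 to 0.027 for BST2, -0.19 to 0.11 for USP18, -0.086 to 0.010 for SAMHD1, -0.11 to 0.0058 for SP100, -0.071 to 0.097 for IFI35 and -0.11 to 0.017 for IFI44L. With median-of-ratios scaling it became -0.013 for IRF1 and -0.039 for IFI35, and with quantile normalization -0.0092 and -0.044. The number of the 45 genes called higher became 2 with a mean of at least 5 FPKM, 2 with median-of-ratios scaling and 2 with quantile normalization, and 1 to 3 with a library left out, the lowest without vector library 1 or shYB1 library 1. The number called lower was 6 to 12 over all alternatives and 7 to 11 with a library left out. The shares of all genes tested moved too. In the main fit 6.93% were called lower and 18.7% higher, against 12.2% and 11.2% with median-of-ratios scaling. For the other alternatives that share is not given here, so their counts, also those of pathway genes, cannot be set against it. The number meeting the criteria of the study became 0 with a pseudocount of 1 and 0 with a mean of at least 5 FPKM, where IFITM1 is not tested. The median log2 fold change was -0.052 with no filter, -0.17 with a mean of at least 5 FPKM, -0.13 with median-of-ratios scaling, -0.14 with quantile normalization and -0.12 to -0.064 with a library left out. Pathway genes called lower numbered 4 with a mean of at least 5 FPKM, 11 with median-of-ratios scaling and 12 with quantile normalization, and those called higher 2 with a mean of at least 5 FPKM, 2 with a prior without trend, 2 with the replicate block and 1 to 2 with a library left out. With the replicate block 8 of the 45 genes were lower and 3 higher, IFITM3 (adjusted p = 0.0767) and HERC5 (0.0634) losing their calls. Over all genes tested, libraries with the same number did not deviate together (correlation of deviations -0.17 to -0.0082, against -0.051 to 0.11 for different numbers). With 3 libraries per group this cannot show whether the numbers pair the libraries. With the replicate block the limma adjusted p went from 0.0131 to 0.000416 for SOCS1 and from 0.0337 to 0.0137 for IRF9. Apart from the filters and left-out libraries, which change what is tested, the cause of each change was not tested. Depth limits the low genes: IFITM1 rests on roughly 9.73 to 46.8 fragments per library, by an estimate that can be well off.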
